A study of Rattus norvegicus with 18 samples.

Results

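Cldn1, Gja5 and Apold1 are 3 genes of barriers and blood vessels, each followed here through 1 transcript (ENSRNOT00000002640, ENSRNOT00000023488 and ENSRNOT00000010289) of the 41078 transcripts counted in rat dorsal root ganglia (DRGs). They were taken by name, as a perineurial tight junction gene, an arterial connexin and an endothelial stress gene. The study itself listed each of them as different between replaced and sham-operated rats in these same data. The comparison of those groups below is therefore not independent evidence of direction, size or p-value. Comparisons of replaced with naive rats, alone or pooled with sham rats, use the same replaced rats and are not independent of that choice either. Messenger RNA was sequenced from the left L3 and L4 DRGs of 18 Sprague Dawley rats in 3 groups of 6, each with 3 rats labelled male and 3 labelled female. Naive rats had no procedure. Sham rats were anesthetized with isoflurane and had the skin over the knee cut and sutured. TKA (total knee arthroplasty) rats were anesthetized in the same way, and the joint was opened and fitted with steel femoral and tibial prostheses, so that the naive group controls for neither anesthesia nor incision and the sham group does not open the joint. DRGs of the operated groups were collected 24 hours after surgery. The age of the rats was not given in the sources used here, and rats that share a number in different groups are different animals.

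The DRG holds the cell bodies of sensory neurons together with satellite glia, Schwann cells, macrophages, a dense capillary bed and a connective tissue capsule. Claudins form the strands of tight junctions, and Cldn1 is the claudin for which the perineurium, the cell sheath that seals nerve fascicles and continues over the ganglion, is best known. From a single-cell database of the DRG, the study instead listed Cldn1 among transcripts of potential Schwann cell origin. Which cells Cldn1 was read from here was not tested. Connexins form gap junction channels, and Gja5 is a connexin of arterial endothelium. Apold1 is an early response gene of endothelial cells, named for a domain shared with the apolipoproteins L. In RNA from a whole ganglion, a change in the number of cells of a type and a change in RNA per cell cannot be told apart.

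The promoters of the 3 genes are shown to set side by side the sequences that precede them. They are taken from RefSeq on build GRCr8, all on the plus strand, and run from 250 bases before to 50 bases after the annotated gene start. Cldn1 lies at chr11:87926126-87926425, Gja5 at chr2:187290977-187291276 and Apold1 at chr4:169552349-169552648. Capitals mark matches to the motifs described below.
Cldn1: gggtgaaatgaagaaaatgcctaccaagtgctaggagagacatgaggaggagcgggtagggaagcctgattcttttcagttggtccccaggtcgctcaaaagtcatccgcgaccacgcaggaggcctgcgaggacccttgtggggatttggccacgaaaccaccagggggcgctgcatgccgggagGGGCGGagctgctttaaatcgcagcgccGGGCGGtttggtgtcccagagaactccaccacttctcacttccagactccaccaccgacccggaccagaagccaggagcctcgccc
Gja5: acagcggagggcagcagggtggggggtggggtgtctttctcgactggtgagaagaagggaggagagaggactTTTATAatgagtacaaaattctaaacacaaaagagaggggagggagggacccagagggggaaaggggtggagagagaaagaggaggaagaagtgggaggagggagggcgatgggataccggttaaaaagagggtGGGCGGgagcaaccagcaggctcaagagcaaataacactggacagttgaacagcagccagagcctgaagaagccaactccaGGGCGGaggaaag
Apold1: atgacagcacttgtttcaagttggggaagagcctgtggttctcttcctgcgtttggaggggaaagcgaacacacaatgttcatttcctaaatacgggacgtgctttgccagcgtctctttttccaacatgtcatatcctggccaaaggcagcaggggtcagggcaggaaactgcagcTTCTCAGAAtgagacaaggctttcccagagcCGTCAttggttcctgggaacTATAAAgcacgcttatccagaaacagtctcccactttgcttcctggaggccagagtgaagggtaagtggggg

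Both strands were searched for 10 motifs. The Cldn1 promoter held the GC box GGGCGG at 64 to 59 and at 36 to 31 bases before the gene start, and it was 60.7% G and C against a median of 51.7% over 33469 rat promoters of the same length. The Gja5 promoter held a GC box at 44 to 39 bases before the start and another 38 to 43 bases into the transcribed sequence, and the letters TATAAA on the minus strand at 178 to 173 bases before it. The Apold1 promoter, in contrast, held no GC box. It held TATAAA on the plus strand at 22 to 17 bases before the start, the STAT letters TTCNNNGAA at 73 to 65 and the cyclic AMP response half-site TGACG on the minus strand at 42 to 38. A GC box was present in 33.1% of all promoters, TATAAA in 14.2%, the STAT letters in 8.87% and the half-site in 21.2%. The AP-1 letters TGANTCA (7.33% of all promoters), the C/EBP letters TTGCNNAA (10.6%), the E-box CACGTG (6.42%), the glucocorticoid half-site TGTTCT (20.7%), the NF-kB motif (7.51%) and the CArG box (1.64%) were in none of the 3 windows. None of these motifs overlapped another in these promoters. The RefSeq annotation lists 1 transcript of Cldn1, 2 of Gja5 and 15 of Apold1. The span of Apold1 overlaps 1 other annotated gene, the pseudogene LOC103692240, with which reads could be shared. No annotated gene overlaps Cldn1 or Gja5.

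Each library held between 20230562 and 29343899 counts. In the library labelled female TKA rat 4, the 3 transcripts that separated the sexes among naive and sham rats as male-only summed to 3472 counts, against at least 3097 in the libraries labelled male and at most 1 in the other libraries labelled female, so that 1 library went against its label. TKA rat 2 was rich in muscle RNA, with Acta1 at 6010 CPM (counts scaled to library size by the TMM method) against at most 399.8 CPM in any naive or sham rat. TKA rats 3 and 6, at 647 and 639 CPM, also exceeded every control. TKA rats 2 and 6 also stood apart in the mean level of the endothelial transcripts Cdh5, Tek and Vwf, at 6.59 and 5.91 log2 CPM against 4.76 to 5.01 in the other 4 TKA rats and 4.43 to 5.05 in naive and sham rats. In rat 6 this came from Vwf (193 CPM) and Tek (54.3 CPM), with Cdh5 at 20.5 CPM against 24.7 CPM in rat 4. Results are therefore also given without TKA rats 2 and 6 together. TKA rat 3 stays in those fits and was left out by itself.

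Cldn1 was higher in the DRGs of every TKA rat than in those of any other rat. Its level was 10.2, 13.7 and 22.5 CPM (lowest, median and highest) in the naive group, 10.3, 17.7 and 21.8 CPM in the sham group and 26.8, 39.8 and 60.5 CPM in the TKA group. The means were 14.5 ± 4.48 CPM, 17.0 ± 4.85 CPM and 41.7 ± 12.5 CPM (SD, n = 6 each). The TKA rats held 51.6, 60.5, 31.5, 38.7, 26.8 and 40.9 CPM in order of rat number, so that rat 1, with Acta1 at 40.4 CPM and an endothelial mean of 4.84 log2 CPM, stood next to rat 2 at the top. The lowest TKA rat lay above the highest control, naive rat 1. Raw counts ran from 214 to 1238, so that counting noise was small beside the spread between rats.

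Apold1 also separated the TKA rats from all others. It was at 5.04, 6.15 and 9.40 CPM (lowest, median and highest) in naive rats, at 5.14, 6.16 and 11.5 CPM in sham rats and at 13.4, 17.1 and 36.0 CPM in TKA rats. Group means were 6.60 ± 1.66 CPM, 7.27 ± 2.57 CPM and 20.5 ± 8.62 CPM (SD, n = 6 each). TKA rats 1 to 6 held 14.8, 36.0, 25.0, 15.7, 13.4 and 18.4 CPM. Rat 2 was the highest and rat 3, whose endothelial mean was the lowest of the group at 4.76 log2 CPM, was next. Rat 3 held more muscle RNA than any control, with summed muscle transcripts at 902 CPM against at most 608 CPM. Without rat 3 alone, edgeR gave Apold1 a log2 fold-change of 1.49 against naive and sham rats together (adjusted p = 0.00824). Sham rat 2 was the highest control, below the lowest TKA rat.

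Gja5 was scarce and did not separate the groups completely. Its level was 0, 1.06 and 1.51 CPM (lowest, median and highest) in naive rats, 0.361, 0.936 and 1.49 CPM in sham rats and 0.667, 3.37 and 6.82 CPM in TKA rats, with means of 0.876 ± 0.578 CPM, 0.944 ± 0.382 CPM and 3.67 ± 2.12 CPM (SD, n = 6 each). TKA rats 2 to 6 held 6.82, 3.11, 3.63, 2.64 and 5.14 CPM, all above every control. TKA rat 1 held 0.667 CPM, from 16 counts, and lay among the controls. Naive rat 5 had no count, which allows a level of up to 0.139 CPM (3 counts, counting error only), and the highest library, TKA rat 2, had 131 counts. The values differed 10.2-fold between the highest and the lowest TKA rat, against 2.25-fold for Cldn1 and 2.69-fold for Apold1.

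**Figure D1:**
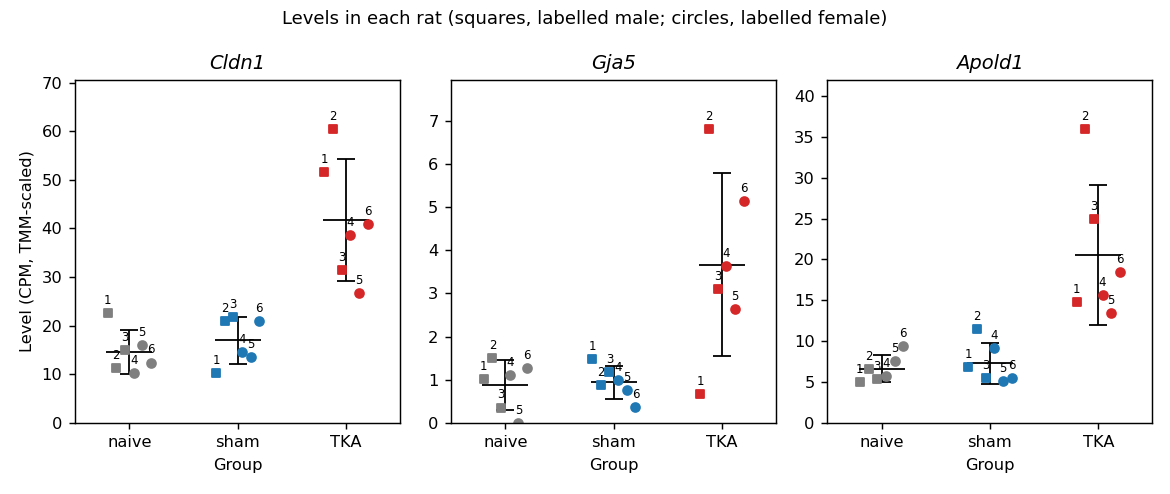
Levels of Cldn1, Gja5 and Apold1 in CPM (linear axes from 0) in each of 6 naive, 6 sham and 6 TKA rats, with rat numbers beside the points, and the mean ± SD of each group as a bar with whiskers. All 6 TKA rats lie above all 12 controls for Cldn1 and Apold1, and 5 of 6 do for Gja5, where TKA rat 1 is at 0.667 CPM.

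The comparison of TKA with sham rats asks what replacing the joint added to skin incision and anesthesia. Cldn1 was 2.45-fold higher (log2 fold-change 1.29, SE 0.23), Gja5 3.87-fold (1.95, SE 0.50) and Apold1 2.82-fold (1.5, SE 0.29). With edgeR's quasi-likelihood test adjusted over 15320 transcripts by the Benjamini-Hochberg method, the adjusted p-values were 0.234, 0.411 and 0.234, so that none of the 3 was called (adjusted p under 0.05 and at least 1.5-fold). Nor was any other transcript: 0 of 15320 were called, or 0%. At an unadjusted p under 0.05 the test found 8.84% of all transcripts and each of the 3 genes, with edgeR p-values of 8.48e-05 (Cldn1, rank 5 of all), 0.000175 (Apold1, rank 9) and 0.00162 (Gja5). Every TKA rat lay above every sham rat for Cldn1 and Apold1, as for 0.457% of transcripts, and at least 5 of 6 did for Gja5, as for 1.85%. In exact two-sided permutation tests over rats, p was 0.00216 for Cldn1 and for Apold1, the smallest that 6 rats against 6 can give, and 0.0130 for Gja5. On the levels of all rats 12 such tests were made, 4 for each gene, and 9 more after subtraction of the mean of Cdh5, Tek and Vwf and 6 without TKA rats 2 and 6. None of their p-values is adjusted.

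That call depended on the tool. DESeq2 with its fold-changes not shrunk (without a prior), which called 0.206% of transcripts as higher in TKA than in sham rats, called all 3 genes, with adjusted p-values of 0.000475 for Cldn1, 0.00108 for Apold1 and 0.0272 for Gja5. With limma voom and sample quality weights (0.00653% called higher) none of the 3 was called. An edgeR fit to all 18 rats (0.0685% called higher) called Cldn1 and Apold1 at adjusted p-values of 0.0402 and 0.0396 and did not call Gja5. Over 14 alternatives the adjusted p-value ran from 0.000475 to 0.531 for Cldn1, from 0.00106 to 0.534 for Apold1 and from 0.0272 to 0.819 for Gja5.

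Against naive rats, which had no procedure, Cldn1 and Apold1 rose after TKA. Cldn1 was 2.87-fold higher (log2 fold-change 1.52, SE 0.23, edgeR adjusted p = 0.0197) and Apold1 3.11-fold (1.64, SE 0.26, adjusted p = 0.0314). They were 2 of the 13 transcripts called among 15170, or 0.0857%, all of them higher in TKA. Gja5 was 4.16-fold higher (2.06, SE 0.70), with an edgeR adjusted p of 0.185, and was not called. Unadjusted p-values were under 0.05 for 17.2% of transcripts. No naive rat reached the lowest TKA rat for Cldn1 or Apold1, as for 1.31% of transcripts (exact permutation p = 0.00216 each), and 5 of 6 TKA rats lay above all naive rats for Gja5, as for 4.28% (exact permutation p = 0.0130). This comparison and the last share the TKA rats.

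Those 2 calls were close to the threshold. Leaving out 1 rat at a time, the edgeR call of Cldn1 was lost in 8 of 12 fits, with adjusted p-values of 0.0576, 0.0504 and 0.0525 without TKA rats 1, 4 and 6, and of 0.0877, 0.0724, 0.0687, 0.0703 and 0.0793 without naive rats 2 to 6. That of Apold1 was lost in 10 of 12. The edgeR adjusted p of Apold1 was 0.0526, 0.0999, 0.0504 and 0.0596 without TKA rats 1, 3, 4 and 6, and 0.108, 0.10, 0.0980, 0.120, 0.0855 and 0.0545 without naive rats 1 to 6. Without TKA rat 2 both had adjusted p-values of 0.0050. The log2 fold-change stayed between 1.38 and 1.69 for Cldn1 and between 1.40 and 1.77 for Apold1 in these fits. DESeq2 without a prior (1.54% of transcripts called higher) called all 3 genes against naive rats, with adjusted p-values of 6.21e-07 for Cldn1, 2.13e-06 for Apold1 and 0.0415 for Gja5. Limma voom (0.659% called higher) and the edgeR fit to all 18 rats (0.648%) called Cldn1 and Apold1 and did not call Gja5.

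**Figure D2:**
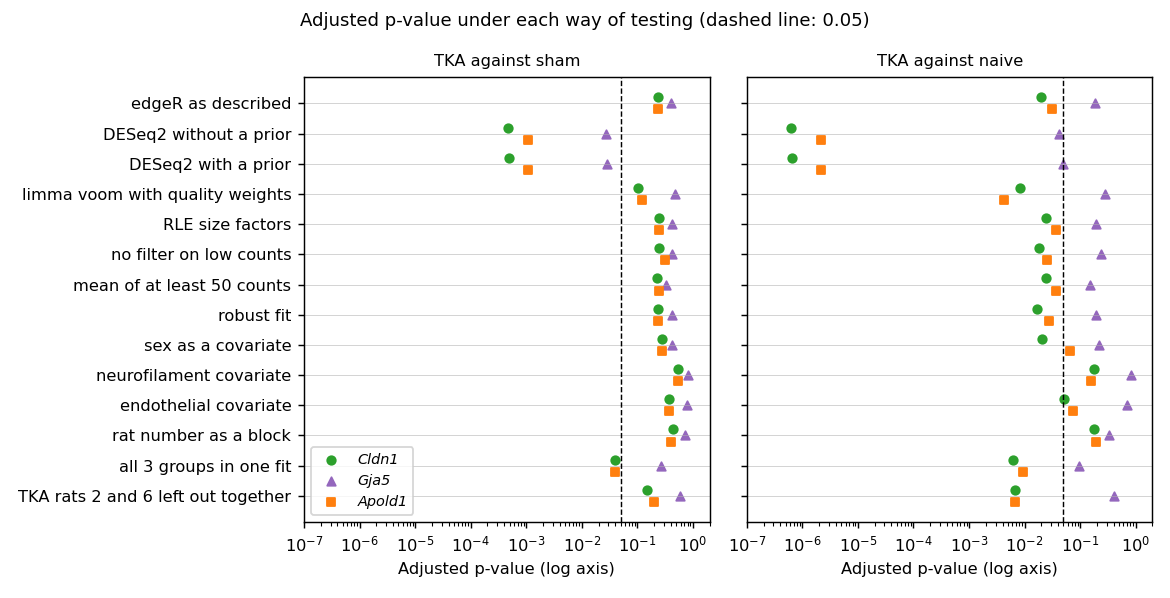
Adjusted p-value (log axis) of each gene under the edgeR test as described and 13 other ways of testing, for TKA against sham and TKA against naive; the dashed line marks 0.05. For Cldn1 and Apold1 the points lie left of the line for both DESeq2 fits and the fit to all 3 groups in both comparisons, and right of it with the neurofilament covariate.

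Sham surgery alone was not followed by a detectable change in the 3 genes. Relative to naive rats the log2 fold-changes were 0.23 (SE 0.22) for Cldn1, 0.11 (SE 0.66) for Gja5 and 0.15 (SE 0.24) for Apold1, and the edgeR adjusted p was 0.998 for each. The exact permutation p-values were 0.370, 0.641 and 0.673. No transcript of 15153 was called (0%, against 5 transcripts with DESeq2 without a prior), 4.12% had an unadjusted edgeR p under 0.05, and 0.0660% were higher in every sham rat than in every naive rat, none of the 3 genes among them. The SE of Gja5 was the largest of the 3, so that for this gene a moderate change could not have been detected at these counts. For Cldn1 and Apold1 too, the absence of a call does not exclude a moderate change. Between TKA and sham rats edgeR did not call differences of 2.45-fold (Cldn1) and 2.82-fold (Apold1), with an adjusted p of 0.234 each. The sham against naive value turned negative for Gja5 without naive rat 3 (-0.05), naive rat 5 (-0.16) or sham rat 1 (-0.07). For Apold1 it did so without sham rat 2 (-0.04). The order of the group means was naive, sham, TKA for each gene, and the first pair did not differ beyond the spread between rats.

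When TKA rats were compared with naive and sham rats together, in a fit that shares its rats with the comparisons above, all 3 genes rose. Cldn1 was 2.65-fold higher (log2 fold-change 1.40, SE 0.19, edgeR adjusted p = 0.00144), Apold1 2.96-fold (1.57, SE 0.22, adjusted p = 0.00148) and Gja5 4.01-fold (2.01, SE 0.52, adjusted p = 0.0409). In all 2.21% of 16048 transcripts were called, 1.99% as higher in TKA, and 20.0% had an unadjusted p under 0.05. The 6 TKA rats lay above all 12 controls for Cldn1 and Apold1, as for 0.243% of transcripts, and 5 of 6 did for Gja5, as for 0.916%. The exact permutation p was 5.39e-05 for Cldn1 and for Apold1, the smallest possible, and 0.00253 for Gja5. DESeq2 without a prior called 2.28% as higher, with all 3 genes among them, and limma voom called 0.710%, with Cldn1 and Apold1 among them and Gja5 at an adjusted p of 0.196.

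Cldn1 and Apold1 kept this call in each of the 18 fits that left out 1 rat, at adjusted p-values up to 0.00568 and 0.00824. Gja5 lost it in 12 of 18. Its edgeR adjusted p was 0.0676, 0.0548, 0.0650, 0.0680 and 0.0529 without naive rats 1, 2, 3, 4 and 6, then 0.0653, 0.0620, 0.0501, 0.0632 and 0.0681 without sham rats 2 to 6, and 0.108 and 0.106 without TKA rats 2 and 6. The number of transcripts called, 354 with all rats, ranged from 95 without TKA rat 6 to 655 without TKA rat 5.

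**Figure D3:**
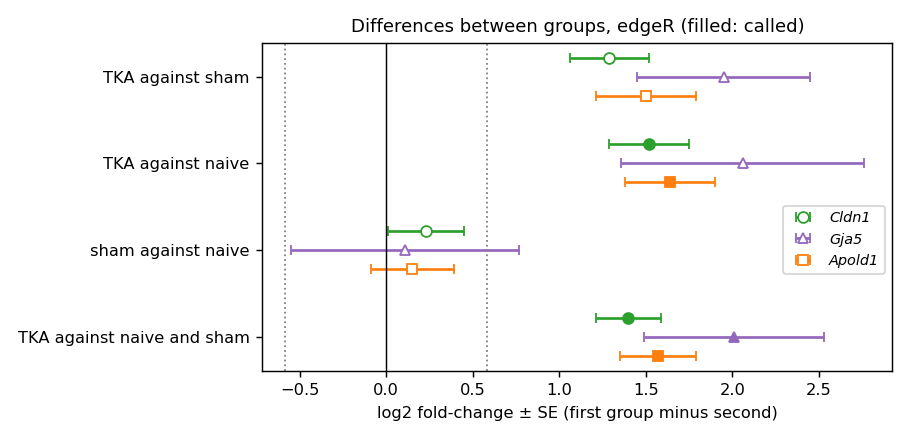
Log2 fold-change ± SE (edgeR) of the 3 genes in 4 comparisons, with filled symbols for calls and dotted lines at 1.5-fold in either direction. The estimates for TKA against sham and TKA against naive lie between 1.29 and 2.06, and those for sham against naive between 0.11 and 0.23; Gja5 has the widest errors.

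Without TKA rats 2 and 6, which stood apart in the endothelial mean, the estimates were lower. Against naive and sham rats together, edgeR gave 1.22 for Cldn1 and 1.30 for Apold1, both with an adjusted p of 0.00453, and 1.45 for Gja5 with an adjusted p of 0.354. That fit called 0.403% of transcripts as higher. Against naive rats, where it called 0.560% as higher, Cldn1 (1.35) and Apold1 (1.38) were called at an adjusted p of 0.00676 each, and Gja5 (1.51) was not. Against sham rats the fit called 0% and the log2 fold-changes were 1.11 for Cldn1, 1.23 for Apold1 and 1.40 for Gja5. The calls of Cldn1 and Apold1 against naive rats and against both control groups were thus made with or without the 2 libraries, and that of Gja5 was lost without them.

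The 3 genes were next read against the mean of 3 endothelial transcripts in the same rat. The mean of Cdh5 (the cadherin of endothelial junctions), Tek (the angiopoietin receptor) and Vwf (von Willebrand factor) had a median of 4.65 log2 CPM in naive, 4.69 in sham and 4.97 in TKA rats. In TKA rats 2 and 6, Vwf lay 3.02 and 2.10 log2 units above its level in the controls. Prx, a gene of myelinating Schwann cells, lay 2.62 and 2.09 above. Whether the endothelial mean follows endothelial RNA alone was not tested. After this mean was subtracted on the log2 scale, the difference between TKA and sham rats was 0.69 for Cldn1 (exact permutation p = 0.0433), 0.87 for Apold1 (p = 0.00649) and 1.09 for Gja5 (p = 0.0325, exact permutation). Against naive rats it was 0.81 for Cldn1 (exact permutation p = 0.0195), 0.87 for Apold1 (exact p = 0.00866) and 1.46 for Gja5 (exact p = 0.0584). All these differences were smaller than those without the subtraction, and for Cldn1 and Apold1 the groups then overlapped: 4 of 6 TKA rats lay above all sham rats for Cldn1 and for Apold1. With the same mean as a covariate in edgeR, the log2 fold-change against naive rats was 1.25 for Cldn1 (adjusted p = 0.0503) and 1.29 for Apold1 (adjusted p = 0.0733), and neither was called. Gja5 then had 1.32 (adjusted p = 0.705). Against naive and sham rats together the same covariate left Cldn1 (1.15, adjusted p = 0.0211) and Apold1 (1.19, adjusted p = 0.0216) called, and Gja5 (1.34, adjusted p = 0.550) not. Neurofilament transcripts of large sensory neurons were below the lowest control in 4 of 6 TKA rats, with a mean of Nefl, Nefm and Nefh from 12.51 to 13.66 log2 CPM against 13.47 to 13.91 in the controls. With them as a covariate edgeR gave 1.20 for Cldn1 (adjusted p = 0.178) and 1.25 for Apold1 (adjusted p = 0.156) against naive rats. The part of cell composition in the differences was not tested beyond these fits.

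**Figure D4:**
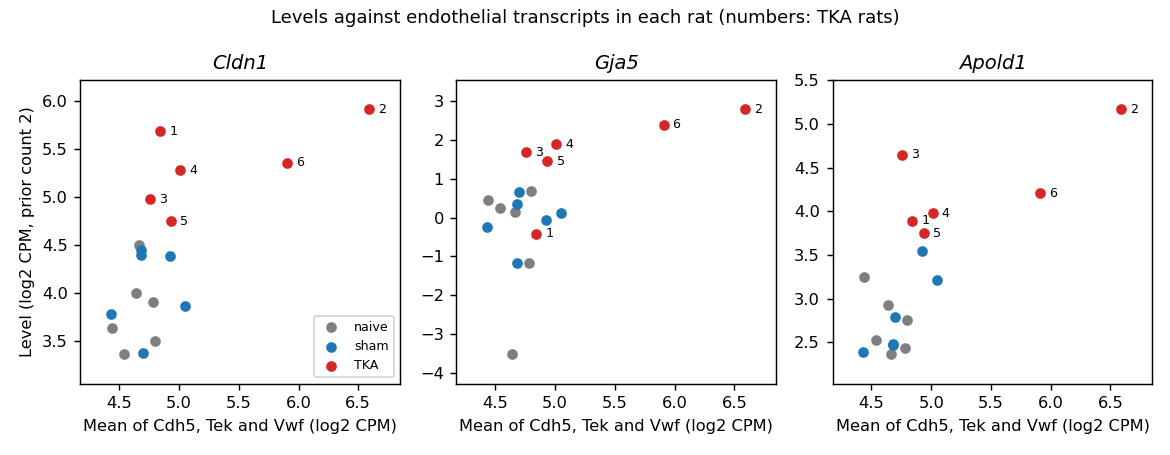
Level of each gene in log2 CPM (prior count 2) against the mean log2 CPM of Cdh5, Tek and Vwf in the same rat, for 6 naive, 6 sham and 6 TKA rats, the last numbered. TKA rats 1, 3, 4 and 5 share the range of the controls on the horizontal axis, and for Cldn1 and Apold1 lie above them on the vertical axis; TKA rats 2 and 6 lie to the right.

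Within each group the genes were compared pairwise over its 6 rats, as 9 relations in all. None passed. The largest positive was Apold1 with Gja5 in TKA rats (Pearson's r = 0.60, exact permutation p = 0.197, adjusted 0.943; Spearman's rho = 0.77, exact permutation p = 0.103, adjusted 0.787), and without the 2 rats farthest from the median of Apold1 r was 0.52. For Cldn1 with Apold1 in TKA rats r was 0.49 (exact permutation p = 0.300, adjusted 0.943; rho = 0.49, exact permutation p = 0.356, adjusted 0.803) and -0.87 without rats 2 and 5. With 6 rats, relations of moderate size could not be detected.

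Sex was examined as labelled, with 3 rats of each sex in a group. Apold1 averaged 25.2 ± 10.6 CPM in TKA males and 15.8 ± 2.52 CPM in TKA females, against 5.66 ± 0.850 and 7.54 ± 1.87 CPM in naive males and females (SD, n = 3 each). The difference between TKA and naive rats was larger by 1.10 on the log2 scale (SE 0.44) in males in edgeR's interaction test, at an unadjusted p of 0.0294 and an adjusted p of 0.995, so that it did not pass. The unadjusted test found 4.69% of transcripts in that comparison and 2.65% in TKA against sham rats, and 0% were called in either. With TKA rat 4 entered as male, as its sex-specific transcripts read, the Apold1 value was 0.95 and without that rat 1.09, and neither passed. For Cldn1 the interaction was 0.34 (SE 0.46) against sham and 0.11 (SE 0.43) against naive rats, and for Gja5 it was -0.84 (SE 1.0) and -0.39 (SE 1.47).

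Other transcripts of the same structures were drawn from lists of known genes. Only transcripts named in the study's shortened tables, which are sorted by p-value, could be matched, and 9.78% of named but 0.289% of unnamed transcripts were called in TKA against naive and sham rats together, so that the counts below lean toward changed transcripts and are read against the former share. No member of these lists was called in TKA against sham rats or in sham against naive rats. In the following, calls and log2 fold-changes are those of edgeR for TKA against naive and sham rats together. The median over all transcripts tested was 0.02.

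Of 30 tight junction genes 8 besides Cldn1 were named and tested, and 1 was called. This was Cldn19, the claudin of myelinating Schwann cells, at 79.7 ± 13.1 CPM in naive, 103 ± 42.6 CPM in sham and 251 ± 246 CPM in TKA rats (SD, n = 6 each; log2 fold-change 1.47, SE 0.37, adjusted p = 0.0378). TKA rats 2 and 6 held the most, 682 and 414 CPM, while TKA rats 3 and 4 held 87.1 and 78.5 CPM and lay within the controls, unlike for Cldn1. Cldn12 had a log2 fold-change of 0.43 (adjusted p = 0.0393), under the 1.5-fold threshold, and the scaffold gene Tjp1 had 0.47 (adjusted p = 0.231). The median of the 8 was 0.82 with all rats and 0.19 without TKA rats 2 and 6, when none was called.

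Of 11 perineurial genes 5 besides Cldn1 were tested, all with positive values, and 2 were called. Slc2a1, the glucose transporter of barrier cells, was at 41.1 ± 5.04 CPM in naive, 39.4 ± 5.18 CPM in sham and 65.5 ± 33.7 CPM in TKA rats (SD, n = 6 each; log2 fold-change 0.70, SE 0.18, adjusted p = 0.0421). TKA rat 2 held 131 CPM and TKA rat 1, second highest for Cldn1, held 43.8 CPM, within the range of naive rats. Gli1, a transcription factor induced by hedgehog signaling, which acts on the perineurium, was at 10.9 ± 1.60 CPM, 11.2 ± 3.45 CPM and 20.7 ± 6.31 CPM (SD, n = 6 each; 0.90, SE 0.18, adjusted p = 0.0167). Ptch1, the hedgehog receptor, had 0.47 (SE 0.11, adjusted p = 0.0339), under the fold threshold. The integrin subunit gene Itga6 had 1.09 (adjusted p = 0.0531). Without TKA rats 2 and 6 none of the 5 was called and their median fell from 0.70 to 0.22. Cldn1 had 1.40 with all rats and 1.22 without those 2. The study had listed it from these same rats, so that it cannot be weighed against that median. The 5 genes were not alike in the remaining TKA rats. In TKA rats 1, 3, 4 and 5, Gli1 lay 1.02, 0.44, 0.66 and 0.65 log2 units above the mean of naive and sham rats, where sham rat 2 was at 0.58. Slc2a1 lay 0.13, 0.16, 0.24 and 0.42 above it in those rats.

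Of 20 connexin genes, Gjb1, Gjb2 and Gje1 were named besides Gja5, and 2 were tested. Gjb1, the connexin of myelinating Schwann cells, had a log2 fold-change of 1.25 (adjusted p = 0.0572) and was at 111 CPM in TKA rat 2. Gjb2 had 0.82 (adjusted p = 0.151). Of 16 genes of arterial identity 5 besides Gja5 were tested. All 5 were lower in TKA rats and none was called: the ephrin ligand gene Efnb2 had -0.53 (SE 0.14, adjusted p = 0.0504), the Notch ligand gene Jag2 -0.45 (SE 0.16, adjusted p = 0.126) and Heyl, a target of Notch, -0.30 (SE 0.10, adjusted p = 0.0997). Their direction was thus opposite to that of Gja5. These 3 genes are also expressed outside arteries, and the cells they were read from here cannot be named.

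Of 28 endothelial genes 13 besides Apold1 were tested, all 13 with positive values, and 4 were called. These were Vwf (1.44, SE 0.37, adjusted p = 0.0409), the adhesion molecule gene Icam2 (1.17, SE 0.30, adjusted p = 0.0409), the nitric oxide synthase gene Nos3 (1.11, SE 0.24, adjusted p = 0.0235) and Klf2, a transcription factor induced by blood flow (0.90, SE 0.23, adjusted p = 0.0400). Vwf was at 364 CPM in TKA rat 2 and at 40.0 to 55.1 CPM in TKA rats 1, 3, 4 and 5, within the range of the controls. Nos3 was at 41.4 CPM in TKA rat 2 and at 10.7 to 23.6 CPM in the other TKA rats, against 10.5 ± 1.65 CPM in sham rats (SD, n = 6). The summed level of the 13 ran from 238 to 319.8 CPM in naive, 239 to 425 CPM in sham and 332 to 1348 CPM in TKA rats, and none was at 0. Without TKA rats 2 and 6 none of the 13 was called and their median fell from 0.90 to 0.36. Apold1 had 1.57 with all rats and 1.30 without those 2. The study had listed it from these same rats, so that it cannot be weighed against that median. The median of the 13 joins transcripts of unlike pattern. Vwf was highest in TKA rat 2, and Thbd in TKA rat 4, at 51.7 CPM against up to 50.7 CPM in sham rats. Of 10 genes of vascular basement membrane 8 were tested and 2 called, Col4a1 (1.08, SE 0.22) and Col8a2 (0.76, SE 0.14), and none was called without these 2 rats.

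Among these lists, early response genes were the ones with calls left when TKA rats 2 and 6 were left out. Of 30 genes of endothelial activation and immediate early response 17 besides Apold1 were tested, all 17 with positive values, and 12 were called. Zfp36, whose protein speeds the decay of cytokine messenger RNAs, was at 19.3 ± 2.68 CPM in naive, 21.8 ± 7.78 CPM in sham and 54.0 ± 8.86 CPM in TKA rats (SD, n = 6 each; 1.40, SE 0.15, adjusted p = 0.000434), and its lowest TKA rat, at 46.0 CPM, exceeded the highest control, at 34.1 CPM. The cell cycle inhibitor Cdkn1a had 1.64 (SE 0.28) and Myc 1.46 (SE 0.24, adjusted p = 0.00665). Fos, Fosl2, Egr2, Ier2, Klf2, Dusp1, Adamts1 and Maff, at 0.67 to 1.53, were also called. Without TKA rats 2 and 6, 9 of the 17 were called, Jun and Egr1 newly among them, and the median was 0.85 against 0.90. That fit called 2.09% of named transcripts, and 0.403% of all transcripts as higher. Zfp36 and Cdkn1a were the 2 of the 17 also called against naive rats alone.

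Markers of other cells were also raised, and they differed in how many TKA rats stood above the controls. The macrophage gene P2ry6, scarce at 42.3 counts on average, was higher in every TKA rat than in any control. It was at 2.58 to 5.62 CPM in TKA rats, against at most 2.33 CPM in naive and 1.25 CPM in sham rats. With all rats 7 of 10 myelinating Schwann cell genes, 3 of 7 macrophage genes, 2 of 4 skeletal muscle genes, 1 of 2 mural cell genes (Des) and the lymphatic gene Lyve1 were called higher, and none of 3 satellite glial and 4 neuronal genes was called in either direction. Des was at 477, 65.7 and 77.1 CPM in TKA rats 2, 3 and 6, the rats highest for Acta1. Other TKA rats held 18.4 to 20.5 CPM. Whether Des was read from mural or muscle cells was not tested. Abcc9, the other mural gene, had 0.82 (edgeR adjusted p = 0.110). The summed level of the Schwann cell genes ran from 6611 to 17698 CPM in naive and sham rats and reached 94021 CPM in a TKA rat, that of the muscle genes from 18.4 to 608 CPM and 8558 CPM, and that of the macrophage genes from 25.7 to 79.0 CPM and 237 CPM. The Schwann cell sum also exceeded the control range in TKA rats 1 and 6, at 17980 and 52438 CPM. The muscle sum did so in rats 3 and 6, at 902 and 887 CPM. The macrophage sum did so in rats 1 and 3, at 80.2 and 81.8 CPM, and in rat 6, which was higher still. For each sum the remaining TKA rats lay within the control range. The Schwann cell sum was 10384 to 10933 CPM in rats 3, 4 and 5. The muscle sum was 61.7, 33.2 and 209.6 CPM in rats 1, 4 and 5, and the macrophage sum 63.9 and 69.7 CPM in rats 4 and 5. Without TKA rats 2 and 6 none of these genes was called. The part of these cells in the levels of Cldn1, Gja5 and Apold1 was not tested.

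**Figure D5:**
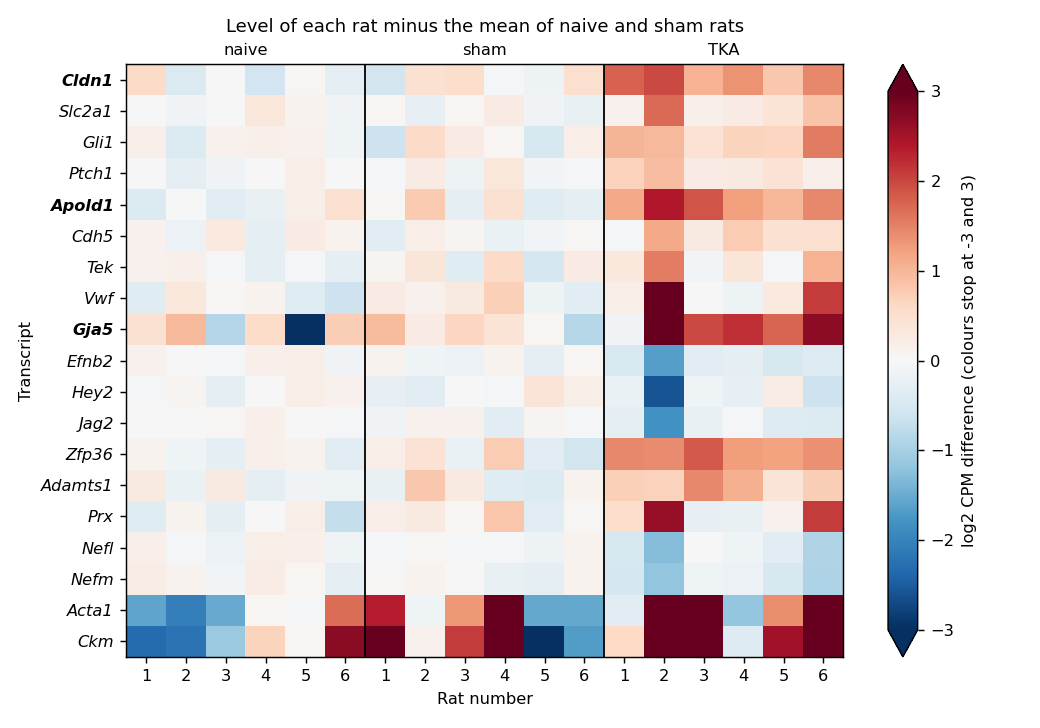
Log2 CPM of each rat minus the mean of the 12 naive and sham rats for the 3 genes (bold) and 16 other transcripts, with red for higher and blue for lower; columns are rats in 3 groups and colors stop at -3 and 3. Cldn1, Apold1 and Zfp36 are raised in all 6 TKA columns, while Vwf and Prx are raised mainly in TKA rats 2 and 6.

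To describe which transcripts ran alongside each gene, Pearson's r of log2 CPM was taken over all 18 rats with 2703 named transcripts of at least 50 counts on average. The rats share their groups, so that r mostly follows the step from controls to TKA, and no p-value is given. Cldn1 was most like Ifitm3 (an interferon-induced membrane protein; r = 0.90), Plod3 (a collagen lysyl hydroxylase; 0.90), Pros1 (the anticoagulant protein S; 0.88), Pbxip1 (0.88) and Vit (0.88). Over the 12 naive and sham rats alone, r of Cldn1 with these 5, in the same order, was 0.78, 0.62, 0.74, 0.57 and 0.67. Gja5 was most like Ebp (an enzyme of cholesterol synthesis; 0.88), Rufy1 (0.84), Mier3 (0.83), Laptm5 (0.82) and Btg2 (0.81). For Gja5, r also takes in naive rat 5, whose 0 counts gave -3.22 log2 units from the mean of naive and sham rats. The ranking without that rat was not taken. Apold1 was most like Clec2g (0.91), the amino acid transporter Slc7a5 (0.90), Zfp36 (0.89), Twf1 (0.89) and Errfi1 (an inhibitor of epidermal growth factor receptor; 0.89). Over the 12 controls alone, r of Apold1 with these was 0.54, 0.48, 0.57, 0.24 and 0.56. Without TKA rat 2, 3 of the 5 transcripts nearest to Cldn1, 4 of those nearest to Gja5 and 3 of those nearest to Apold1 were again among the nearest 5, Gli1 stood at rank 4 for Cldn1 (0.86) and Zfp36 at rank 1 for Apold1 (0.91). Among themselves, Cldn1 and Apold1 had r = 0.78 over 18 rats and -0.06 over the 12 controls.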

How the data were processed

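Counts per transcript of 18 rats were deposited as 1 table by the authors, as raw counts without normalization; the submitters' processing notes name HISAT2, featureCounts, DESeq2 and build rn6, and versions, strand and overlap settings are not given in the sources used here. Transcript identifiers were matched to symbols through the study's own tables, which named 3837 of 41078 transcripts and 1 for each of the 3 genes. Fold-changes and p-values in those tables, the study's own comparisons, were not used. The 3 genes, the marker lists and the tests were chosen with earlier results of these data known.

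Groups and sex were taken from the labels. Counts were filtered (filterByExpr), scaled by TMM and tested across all transcripts with edgeR 4.0.16 (quasi-likelihood F test, Benjamini-Hochberg adjustment) in R 4.3.3; calls needed an adjusted p under 0.05 and at least a 1.5-fold difference. Scripts were tested on simulated data. DESeq2 1.42.0 and limma 3.58.1 were alternatives, with other scalings, filters, covariates and samples. Single genes were tested over rats by two-sided exact permutation of log2 CPM (prior count 2). Totals of 20230562 to 29343899 counts left counting error small except for Gja5. No 2 libraries agreed within sampling noise (lowest chi-square per degree of freedom 12.5). Alternatives added after seeing the data were the sex of TKA rat 4, the subtraction of the endothelial mean, permutation without TKA rats 2 and 6, and relations without the 2 farthest rats. Named were the 3 genes, list members called in any comparison or with the highest counts, and the 5 transcripts most like each gene; Cldn12, Tjp1, Itga6, Ptch1, Jun, Egr1 and uncalled transcripts of the heat map were added after their values were seen. Promoters were read from RefSeq (GRCr8) and share no coordinates with the counts. Protein sequences were not used here, and some members of the lists are counted but not reported by name.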

Additional observations from a re-analysis of the deposited data

How the results depend on the processing

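Estimates of Cldn1 and Apold1 for TKA against sham, naive or both controls kept their direction in every alternative run; the calls did not, and causes were not tested. In transcripts called, TKA against sham gave 0 with edgeR, 67 with DESeq2 without and 58 with a prior, 1 with voom and 11 with all 3 groups in one fit; TKA against naive gave 13, then 449, 355, 123 and 116, with 39 under the neurofilament and 38 under the endothelial covariate and 105 without TKA rats 2 and 6; sham against naive gave 0, and 5 with DESeq2 without a prior; TKA against both gave 354, then 691 and 540 with DESeq2, 138 with voom, 50 and 64 with the covariates and 77 without those rats. Leaving out 1 rat gave 3 to 113 for TKA against naive and 95 to 655 against both.

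For TKA against sham, log2 fold-changes newly called were 1.29 and 1.10 (DESeq2 without and with a prior) and 1.29 (3 groups) for Cldn1, 1.96 and 1.16 (DESeq2) for Gja5, and 1.5, 1.20 (DESeq2) and 1.5 (3 groups) for Apold1. Against naive, Gja5 was called by DESeq2 at 2.06 and 1.08; calls were lost for Cldn1 at 1.20 (neurofilament) and 1.25 (endothelial), and for Apold1 at 1.61 (sex as a covariate, adjusted p = 0.0663), 1.25 and 1.29. Against both, calls were lost with the neurofilament covariate for Cldn1 (1.20, adjusted p = 0.0765), Apold1 (1.25, adjusted p = 0.0646) and Gja5 (1.45), and for Gja5 with voom (1.51), no filter (1.99, adjusted p = 0.0522), the endothelial covariate (1.34) and without TKA rats 2 and 6 (1.45). Leaving out 1 rat, Cldn1 and Apold1 against naive ran from 1.38 to 1.69 and 1.40 to 1.77, Gja5 against both from 1.73 to 2.22, and for sham against naive Gja5 from -0.16 to 0.34 and Apold1 from -0.04 to 0.27; there Apold1 was -0.0042 with the endothelial covariate. In permutation, Gja5 without TKA rats 2 and 6 differed by 1.21 from sham (exact p = 0.0571) and 1.68 from naive (exact p = 0.0857), and by 1.46 from naive after subtraction of the endothelial mean. The filter at a mean of 50 counts removed Gja5 from sham against naive and from TKA against both.

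Of the relations within groups, r without the 2 farthest rats became 0.58 (Apold1 with Gja5, naive), -0.41 (Cldn1 with Apold1, sham), -0.87 and -0.69 (Cldn1 with Apold1 and with Gja5, TKA), -0.92 and -0.24 (Cldn1 with Gja5, naive and sham) and 0.57 (Apold1 with Gja5, sham). Of the 5 nearest transcripts, 3 were shared without TKA rat 2 for Cldn1 and for Apold1.

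Rat numbers did not pair the animals: r of deviations from the group means exceeded 0.1 in 2 of 18 same-numbered pairs. With the rat number as a replicate block, transcripts called were 0 (TKA against sham), 1 (against naive) and 45 (against both); Cldn1 (1.51) and Apold1 (1.58) against naive and Gja5 against both (2.01, adjusted p = 0.107) were not called. Depth limited Gja5, with 0 to 131 counts. The rn6 annotation was not used here, reads shared with overlapping genes could not be separated, and with 6 rats a group p-values rest on few animals.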
